A study of Mus musculus with 2 samples.

Results

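The killer lectin receptor genes encode C-type lectin-like receptors of natural killer (NK) cells and of some T cells. They were taken as all genes of any biotype on mouse chromosome 6 whose symbol begins with Klr followed by a letter from a to k. This gave 30 members among 55413 annotated genes, of which 26 were protein-coding and 4 were pseudogenes (Klrb1-ps1, Klra11-ps, Klra14-ps and Klra13-ps). A run of 28 members, with 20 kb on either side, formed the complex at chr6:128589227-131267362 (mm10), and Klrg2 (chr6:38625693-38637242) and Klrg1 (chr6:122270596-122282882) lay apart from it.

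The data were ATAC-seq peaks of regulatory T cells. ATAC-seq marks open chromatin by where the Tn5 transposase can insert into DNA. The 2 libraries were technical replicates of 1 biological replicate from a 4-month-old male mouse of the strain Foxp3CreERT2 x Rosa26YFP, and the labels call the material a primary cell of haematopoietic origin in bone marrow. In this strain the Foxp3 gene drives an inducible Cre recombinase and a YFP reporter sits in the Rosa26 locus. The labels name no inbred background, no inducer and no second group. Peaks were called on the pooled reads, so each value below is that of 1 pooled sample, with no replicate error and no test, and the depth is unknown because the lists hold no counts. The 3 deposited lists were an IDR-thresholded list, a pseudoreplicated list and an IDR-ranked list. IDR, the irreproducible discovery rate, measures how well peak ranks agree between 2 calls, and the lowest −log10 IDR of a thresholded peak in the authors' deposited table was 1.30. Of the regulatory T cell markers, 7 of 7 had a thresholded promoter peak, among them Foxp3 (signal 9.50). Of the NK markers 4 of 7 had one (Eomes, Gzmb, Prf1 and Itga2), and of the CD8 T cell markers Cd8b1 had one (10.7) and Cd8a had none. Among all protein-coding genes 52.6% had one, and the NK and CD8 counts are near that share. Whether other cell types contributed to the peaks was not tested.

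NK cells weigh activating against inhibitory signals, and many of these receptors come as pairs of both kinds that bind like ligands. Klra genes encode the Ly49 receptors, which bind classical MHC class I molecules. Klrc genes encode NKG2 chains, which pair with CD94, the product of Klrd1, and bind the non-classical molecule Qa-1 (H2-T23). Klrk1 encodes NKG2D, a receptor for stress-induced ligands, and the Klrb1 genes encode the NKR-P1 receptors, several of which bind products of the Clec2 genes that lie among them. Klrg1 encodes an inhibitory receptor for cadherins and is used as a marker of differentiated effector cells, regulatory T cells included. The number of Klra genes differs between inbred mouse strains, and the reference genome is that of C57BL/6J.

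Few killer lectin receptor genes had an open site of the thresholded list in or near them. A peak was counted for a gene when its summit lay in the gene or within 20 kb of it. Such a peak was found for 5 of 30 members (16.7%), against 50.2% of all annotated genes, and for 4 of the 26 protein-coding members (15.4%), against 69.8% of all protein-coding genes. The 5 members were Klrb1c and Klrb1b with 10 peaks each, Klrg1 with 8, Klrb1f with 3 and Klra11-ps with 1. The median was 0 peaks per member, against 1 over all genes and 2 over protein-coding genes. In the larger pseudoreplicated list 10 members (33.3%) had a peak, against 57.1% of all genes, and 34.6% of the protein-coding members, against 75.2% of protein-coding genes. The list added Klrg2 and Klre1 and Klrd1 with 2 peaks each and Klrb1 and Klrk1 with 1 each. The ranked list added no member, and 20 members had no peak in any list: Klrb1a and Klrb1-ps1, the 3 Klrc genes, Klri1 and Klri2, and 13 of the 14 Klra genes.

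**Figure D1:**
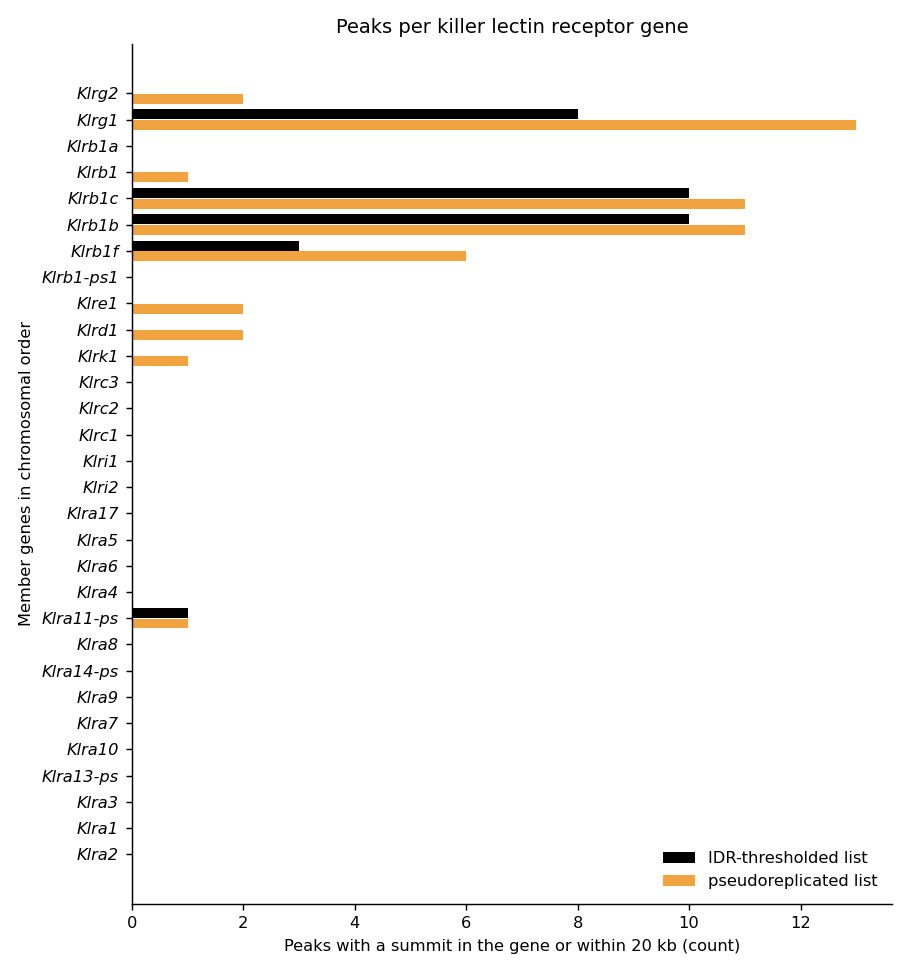
Number of peaks with a summit in each member gene or within 20 kb (x axis), for the 30 members in chromosomal order, with black bars for the thresholded and orange bars for the pseudoreplicated list. The longest bars stand at Klrg1, Klrb1c, Klrb1b and Klrb1f, Klra11-ps has 1 peak in both lists, Klrg2, Klrb1, Klre1, Klrd1 and Klrk1 have 1 or 2 orange peaks alone, and 20 members have none in either list.

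No member had a thresholded peak at a promoter, that is, overlapping the 1 kb on either side of any of its annotated transcription start sites. The count was 0 of 30 members, against 27.0% of all genes and 52.6% of protein-coding genes. In the pseudoreplicated list 4 members had one (13.3%), against 30.8% of all genes and 57.7% of protein-coding genes. These were Klrg1 (signal 7.46, 794 bp upstream of its start site), Klrb1f (7.30, 57 bp upstream of an internal start site), Klrg2 (3.34, 274 bp downstream) and Klrb1c (3.13, 158 bp upstream of one of its 3 start sites). All 4 were weaker than the median signal of that list, 8.55. Signal stands for the enrichment that the authors gave each peak. What it is relative to is not stated, so it is compared here only within a list.

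Promoters of the members were poor in CpG, the dinucleotide whose density is known to go with open promoters in many tissues. RefSeq promoter windows, 250 bases before to 50 after the gene start, were found for 23 members. Their observed over expected CpG ratio had a median of 0.197 and ran from 0 in Klra4 to 0.455 in Klrg2, against a median of 0.598 over the 16522 protein-coding genes matched to the same table. Median GC content was 39.3% in the members' windows and 57% over all. Of the 6722 protein-coding genes with a ratio no higher than the members' maximum, 20.6% had a thresholded promoter peak, and of the 3514 with a ratio no higher than the members' median, which 12 of the 23 members meet, 12.1%. Both shares are lower than the 52.6% of all protein-coding genes. That share is over 21938 genes with or without a RefSeq window, so the sets differ. Klrg2, with the highest ratio of the members, was among the 4 with a weak promoter peak, and Klrb1c, with a ratio of 0.0700, was too. What CpG content contributes to the count was not tested.

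Klrg1 had open sites on both sides of the gene. Its 8 thresholded peaks had signals of 4.40 to 13.5, with a median of 8.58. Of these, 4 lay beyond the 3′ end, 3 upstream of the 5′ end and 1 in an intron, 8.17 kb from the 5′ end (signal 8.93). The peak of highest signal stood 11546 bp beyond the 3′ end (13.5, −log10 p 107) and held a CTCF and a RUNX match. A second, 1252 bp beyond the 3′ end, had nearly the same signal (13.2, −log10 p 59.0). The peak of highest −log10 p stood 9096 bp upstream (209, signal 10.5), followed at 11168 bp by a weaker one (4.40). All 3 upstream peaks lay nearer to a start site of the annotated gene Gm6637 than to that of Klrg1. The RUNX pattern TGTGGTT, sought on both strands, was found in 4 of the 8 peaks within 200 bases centred on the summit. Over all thresholded peaks the share was 9.07%. The upstream peak of highest −log10 p is shown for its matches, with RUNX and AP-1 (TGANTCA) matches in capitals, from chr6:122291878-122292077, plus strand. The weak promoter peak, from chr6:122283576-122283775, held none of the 9 patterns sought and stands all in lower case.
Klrg1 upstream peak: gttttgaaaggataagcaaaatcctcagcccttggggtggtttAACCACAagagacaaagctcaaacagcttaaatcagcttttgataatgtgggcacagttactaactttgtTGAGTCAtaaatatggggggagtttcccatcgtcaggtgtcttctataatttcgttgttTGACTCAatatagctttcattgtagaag
Klrg1 promoter peak: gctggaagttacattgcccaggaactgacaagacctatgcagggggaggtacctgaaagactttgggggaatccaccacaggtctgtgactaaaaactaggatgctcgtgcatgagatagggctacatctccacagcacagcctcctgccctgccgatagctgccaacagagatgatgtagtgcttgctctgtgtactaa
The first holds 1 RUNX and 2 AP-1 matches within 200 bases. A match is a description of letters and not a binding site.

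Klrg2 had no thresholded peak within 20 kb, and its nearest lay 55.31 kb from its 5′ end. Its pseudoreplicated peaks had signals of 3.34 at the promoter and 9.18 at 13502 bp upstream. In the authors' deposited table the −log10 IDR of the upstream peak was 1.23, just under the limit of 1.30, and that of the promoter peak was 0.477.

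Most peaks of the complex lay between the receptor genes rather than in them. It held 54 thresholded peaks over 2.68 Mb, or 20.2 peaks per Mb, against 13.1 over the genome, a ratio of 1.54. With peaks below the list's median signal left out the ratio turned to 0.914, below the genome's density. Only 2 of the 54 had their summit within a member gene, the intron peaks of Klrb1c and Klra11-ps, and 52 lay outside members. These counts are not set against the share of the sequence that the members take up, which was not computed. In all, 18 lay within a member or 20 kb of one and 36 lay in no such window. By position, 20 were intergenic, 18 intronic, 9 at a promoter of a non-member gene and 7 exonic, a peak being assigned by its summit. The promoter share was 16.7%, against 39.6% over the list. Another 36 peaks stood in the pseudoreplicated list alone and 1 in the ranked list alone.

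The peaks were confined to the Klrb1 side of the complex, with 1 exception. The Klrb1 stretch, with 6 members, held 28 thresholded peaks (51.8 per Mb, 3.96 times the genome's density). The stretch from Klrb1-ps1 to Klre1, which has no member and holds Cd69, Clec2d and other lectin genes, held 25 (55.7 per Mb, 4.26 times). From Klre1 to Klri2, with 8 members, there was no thresholded peak and 1 pseudoreplicated peak. From there to Klra1, with 13 members, there was 1 thresholded peak (1.55 per Mb). The last stretch, 880 kb from Klra1 to beyond Klra2, held no peak of any list. The 809 kb from Klre1 to Klra1 thus held 1 thresholded peak among 21 members. Sparse windows are common in the list. Of 5441 windows of 500 kb across the genome, 45.8% held 0 or 1 thresholded peak, and the median window held 2. These windows are shorter than the 809 and 880 kb stretches, take in assembly gaps and were not matched for gene content. How common equally sparse stretches of those lengths are was not computed. For scale, the Gimap gene cluster on the same chromosome held 24 thresholded peaks in 164 kb and the SLAM family cluster on chromosome 1 held 72 in 1070 kb.

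**Figure D2:**
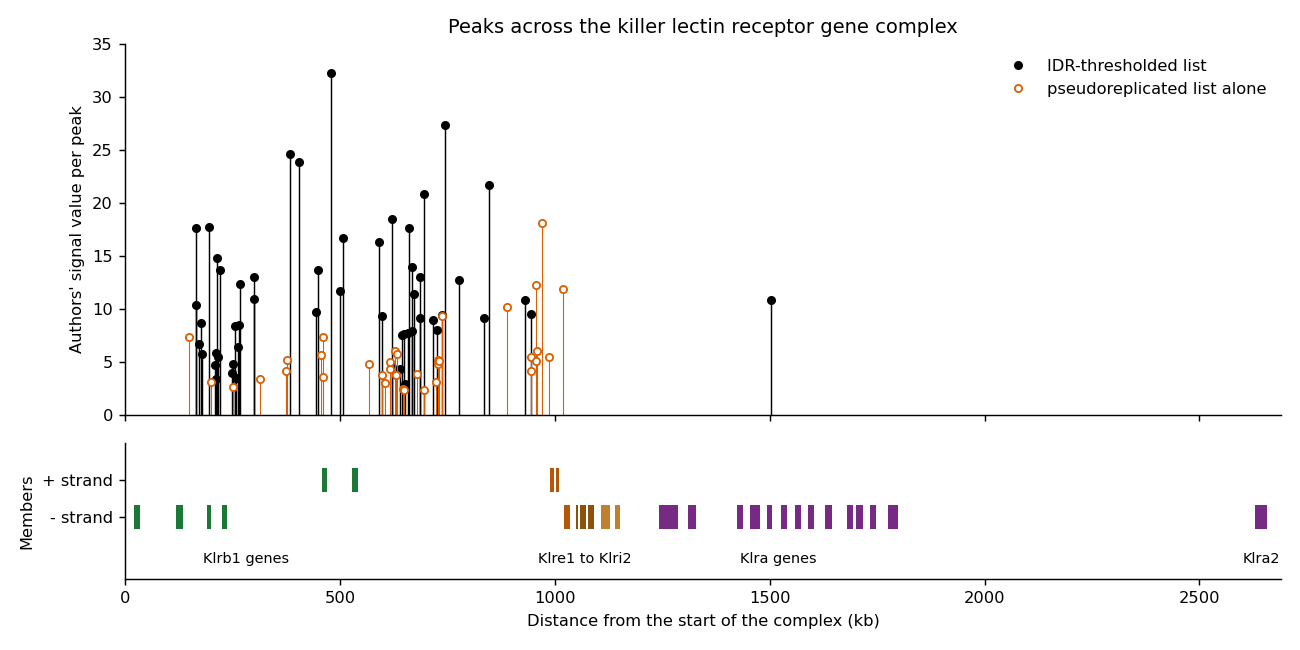
Signal of each peak (upper panel) by distance from the start of the complex in kb, with filled points for thresholded peaks and open points for peaks of the pseudoreplicated list alone, above the members by strand (lower panel). The points crowd into the first part of the complex, and 1 thresholded peak, of signal 10.85, stands among the Klra genes.

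Within the Klrb1 stretch the members differed. Klrb1a had no peak of any list within 20 kb. Klrb1 had none of the thresholded list and 1 weak one, 13267 bp upstream of its 5′ end (signal 7.30). Klrb1-ps1 had none, and its nearest thresholded peak lay 21.2 kb upstream. Klrb1c, which encodes the activating receptor and NK cell marker NK1.1, and its neighbour Klrb1b, which encodes an inhibitory receptor for the Clec2d product, each had 10, of which 6 lay between the genes and were counted for both. The Klrb1c peaks ran from a signal of 3.36 to 17.7, the highest being the intron peak at chr6:128783268-128783872 (−log10 p 109). The highest near Klrb1b was 14.8, with a −log10 p of 608, at chr6:128802789-128803469, which lies in an intron of the annotated gene Gm44511, which spans both. Klrb1b had no peak within the gene itself.

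Klrb1f, which encodes another NKR-P1 receptor, had 3 thresholded peaks, and one of them was the strongest of the complex. It stood 9719 bp beyond the 3′ end at chr6:129066893-129067495, with a signal of 32.2, higher than 99.8% of the list, and a −log10 p of 219. The other 2 lay 8763 bp (signal 13.6) and 12304 bp (9.69) upstream. The next 2 peaks of the complex by signal belonged to no member locus. One, with a signal of 27.3, stood at chr6:129333612-129334258, 2170 bp upstream of the nearest start site, that of 4922502D21Rik. The other, with 24.6, stood in an intron of Clec2g at chr6:128972584-128973317. The 200 bases at these 3 summits are shown because they are the strongest open sites of the complex. Capitals mark a repeat in the first and the ETS (AGGAAGT) and RUNX patterns, on either strand, in the others.
Klrb1f 3′ peak, chr6:129067083-129067282: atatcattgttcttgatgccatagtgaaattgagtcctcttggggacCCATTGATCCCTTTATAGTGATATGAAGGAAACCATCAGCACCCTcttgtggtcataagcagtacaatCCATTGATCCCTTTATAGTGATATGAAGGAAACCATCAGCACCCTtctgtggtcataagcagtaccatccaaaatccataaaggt
Peak near 4922502D21Rik, chr6:129333866-129334065: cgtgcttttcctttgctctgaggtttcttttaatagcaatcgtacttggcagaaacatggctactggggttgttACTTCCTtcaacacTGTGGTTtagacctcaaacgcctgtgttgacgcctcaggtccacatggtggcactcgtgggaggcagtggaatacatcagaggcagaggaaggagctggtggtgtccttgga
Clec2g intron peak, chr6:128972852-128973051: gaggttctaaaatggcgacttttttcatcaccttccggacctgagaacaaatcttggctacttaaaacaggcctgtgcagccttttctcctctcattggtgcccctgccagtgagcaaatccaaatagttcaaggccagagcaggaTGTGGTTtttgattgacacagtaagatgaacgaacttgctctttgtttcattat
The Klrb1f window held 2 copies of a run of 45 bases, with starts 68 bases apart, and none of the 9 patterns. The second window held an ETS and a RUNX match, and the Clec2g window a RUNX match. The next by signal were peaks at the start site of BC064078 (23.9), in Clec1a (21.7), 9134 bp upstream of Cd69 (20.8), in 2310001H17Rik (18.5), in the Klrb1c intron (17.7), and 2 intergenic ones of 17.6 each. The Cd69 upstream peak had the highest −log10 p of the complex, 841. Cd69 encodes an early activation marker of lymphocytes.

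Several peaks around Klrb1c and Klrb1b were copies of each other in sequence. Each thresholded summit was aligned over 250 bases with the whole complex, and a copy was an alignment of at least 80% of that length. Of the 54 peaks, 17 had a copy, 37 had none, and for 11 of the 17 a copy overlapped a peak. Between the stretch beyond the 3′ end of Klrb1c and the stretch between Klrb1c and Klrb1b, 4 sites recurred at a spacing of 37.6 to 38.9 kb, and 3 of them had a thresholded peak at both copies. The first had a signal of 6.68 beyond the 3′ end of Klrb1c, and its copies between the genes, 10028 and 10584 bp upstream of Klrb1c, had 3.36 (98.7% identical) and 5.86 (96.4%). In these aligned copies 52.0% to 61.8% of 50-base words were unique in the genome. The second had 8.64 beyond Klrb1c and 14.8 between the genes, at 88.0% identity, with 100% of the words of either copy unique. The next had 5.75 beyond Klrb1c and 5.42 between the genes at 97.2% identity, with 66.0% of the words unique. The last had a peak of 13.7 between the genes, 4976 bp beyond the 3′ end of Klrb1b, and no peak at its copy beyond Klrb1c (80.8% identity, 100% of the words unique). Reads from near-identical copies can be placed at the wrong one, and whether that contributed was not tested. A peak between the genes (4.68) also matched one upstream of Klrb1f (13.6) at 95% identity, in inverted orientation, with 88.5% of the words unique. In the Clec2 genes among them, the intron peaks of Clec2i (13.0) and Clec2g (24.6) were copies at 98.0%, with 72.8% of the words unique.

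**Figure D3:**
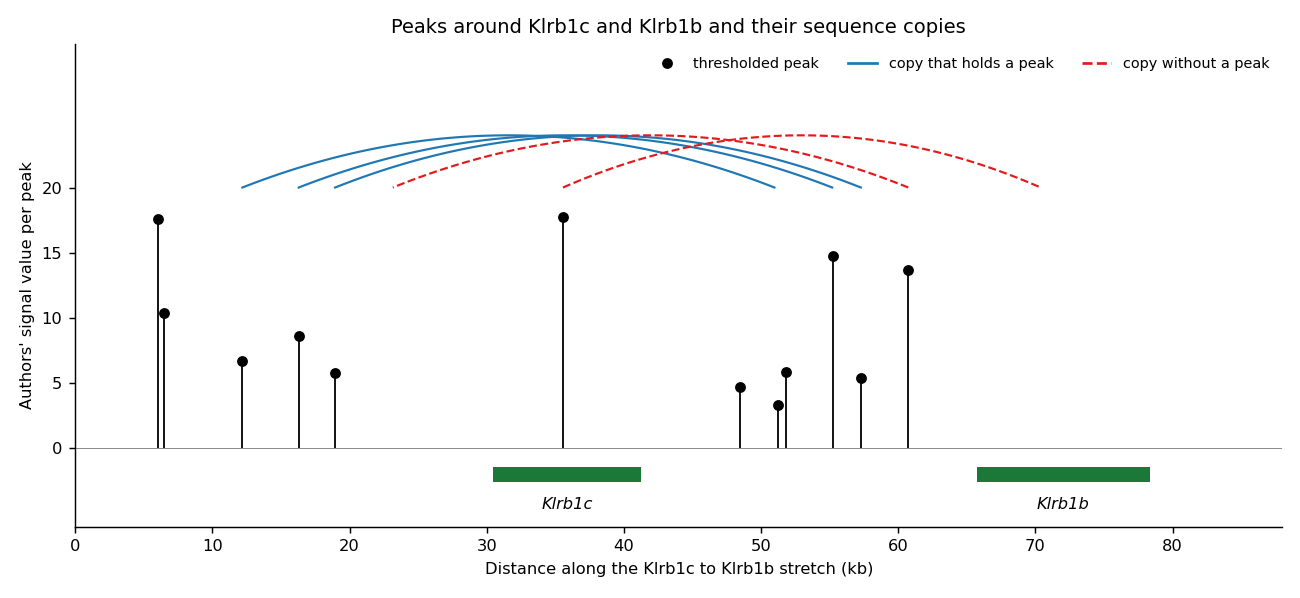
Signal of the thresholded peaks around Klrb1c and Klrb1b by distance along the stretch in kb, with the genes as green bars. Solid arcs join a peak to a copy that holds a peak and dashed arcs to a copy without one, and the 3 solid arcs link the sites with a peak at both copies, while 2 dashed arcs lead to copies without one.

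Other copies had no peak. The Klrb1c intron peak, the strongest of that gene, matched an intron site of Klrb1b at 89.6% identity over 230 aligned columns, and no list held a peak there although all 50-base words of the copy were unique. The intergenic peak at chr6:128753797-128754267 (17.6) and its neighbour (10.4) had copies near Klrb1a at 95.7% and 97.2%, also without a peak, where 74.0% and 81.9% of the 50-base words were unique. An intron peak of Clec2e (16.7) had a copy within Clec2h, 31992 bp from Klrb1, at 77.6%, without a peak and with all words unique. The shared site of 5.75 and 5.42 and the intron site with a peak in Klrb1c alone are shown for comparison, with bases that differ or have no partner in the copy in capitals. The shared pair comes from chr6:128766825-128767074 and chr6:128805149-128805398, and the intron pair from chr6:128783460-128783682 and chr6:128818266-128818491, all plus strand.
Beyond the 3′ end of Klrb1c, peak: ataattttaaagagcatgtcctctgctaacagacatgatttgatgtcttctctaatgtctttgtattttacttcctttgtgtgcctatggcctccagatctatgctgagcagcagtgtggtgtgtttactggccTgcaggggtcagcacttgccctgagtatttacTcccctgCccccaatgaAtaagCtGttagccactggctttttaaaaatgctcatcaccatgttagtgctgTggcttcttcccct
Between Klrb1c and Klrb1b, peak: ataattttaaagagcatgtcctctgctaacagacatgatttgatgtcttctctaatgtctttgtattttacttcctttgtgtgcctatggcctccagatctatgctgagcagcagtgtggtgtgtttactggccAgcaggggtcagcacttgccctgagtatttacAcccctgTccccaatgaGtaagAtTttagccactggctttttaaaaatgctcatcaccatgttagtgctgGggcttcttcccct
Klrb1c intron, peak: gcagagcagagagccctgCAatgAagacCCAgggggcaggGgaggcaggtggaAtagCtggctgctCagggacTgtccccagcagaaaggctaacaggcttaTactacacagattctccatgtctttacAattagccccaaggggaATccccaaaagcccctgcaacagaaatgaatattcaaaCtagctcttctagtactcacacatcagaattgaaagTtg
Klrb1b intron, no peak: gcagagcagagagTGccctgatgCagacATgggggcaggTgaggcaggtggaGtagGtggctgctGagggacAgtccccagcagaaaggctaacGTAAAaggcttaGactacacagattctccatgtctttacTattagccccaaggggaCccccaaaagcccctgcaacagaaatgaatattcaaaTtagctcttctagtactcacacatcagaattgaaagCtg
The shared pair had 7 mismatches and no gap over 250 bases. The intron pair had 13 mismatches and 11 gap columns, and 19 bases of either sequence lie in annotated exons.

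The CD94, NKG2 and NKG2D genes had no thresholded peak within 20 kb. The nearest lay 44.53 kb upstream of Klre1, at the promoter of Gabarapl1, and was also the nearest for Klrd1 (58.4 kb), Klrk1 (90.49 kb), the Klrc genes (109.96 to 145.6 kb) and the Klri genes (183.76 to 207.11 kb). The 5 strongest peaks of the pseudoreplicated list alone in the complex all lay between Klrb1-ps1 and Klrk1. The first stood 18427 bp upstream of Klre1 (signal 18.2, −log10 p 83.6). The authors' deposited table gives it a −log10 IDR of 0.895 and −log10 p of 66.1 and 22.5 in the 2 IDR inputs. A second, 33510 bp upstream of Klre1, had 12.2, and the next, between Klrd1 and Klrk1, had 11.9. The last 2 had 10.2, 4195 bp upstream of Clec7a, and 9.30, at the promoter of 4922502D21Rik. The peak between Klrd1 and Klrk1 lay 1753 bp beyond the 3′ end of Klrk1 and was counted for Klrd1 as well. A weak peak 2370 bp upstream of Klre1 (5.42) was counted for Klre1 and Klrd1.

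The Klra genes had no peak in any list except at a pseudogene. The labels do not give which Klra genes this mouse carries, so at a Klra gene without a peak, closed chromatin and a gene that is absent or differs from the C57BL/6J reference cannot be told apart. Klra11-ps had 1 thresholded peak in an intron, 2.14 kb from its 5′ end, at chr6:130092394-130093011, with a signal of 10.85 and a −log10 p of 39.4. In the authors' deposited table its −log10 p was 24.3 and 16.8 in the 2 IDR inputs and its −log10 IDR 1.46, close to the limit of 1.30. The signal is higher than 36.0% of the thresholded list and the −log10 p higher than 11.3%. A ranked-list peak of 2.71 stood in the same gene, 1.40 kb from the 5′ end. The site had 15 copies in the complex, 13 of them one in each other Klra member, at 71.7% to 94.8% identity and 1.79 to 8.40 kb from the 5′ ends. None of the 15 had a peak in any list. The share of unique 50-base words in those 13 copies ran from 47.7% to 100%, and in the closest, in Klra8, it was 97.2%. Klra8 encodes Ly49H, an activating receptor for a protein of mouse cytomegalovirus. The peak (chr6:130092407-130092656) and its Klra8 copy (chr6:130125887-130126136) are shown as the closest pair of a Klra site with a peak and one without, with differing or unpaired bases in capitals.
Klra11-ps, peak: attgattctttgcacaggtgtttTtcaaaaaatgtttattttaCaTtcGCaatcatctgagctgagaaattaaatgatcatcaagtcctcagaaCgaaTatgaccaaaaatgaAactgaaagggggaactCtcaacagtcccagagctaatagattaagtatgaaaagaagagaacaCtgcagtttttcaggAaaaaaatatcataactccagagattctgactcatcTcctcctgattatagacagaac
Klra8, no peak: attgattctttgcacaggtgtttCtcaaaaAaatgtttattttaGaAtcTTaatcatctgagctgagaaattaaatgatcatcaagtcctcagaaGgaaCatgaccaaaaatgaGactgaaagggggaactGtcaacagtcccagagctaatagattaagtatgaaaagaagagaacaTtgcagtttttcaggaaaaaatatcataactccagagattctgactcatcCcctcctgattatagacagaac
The pair had 11 mismatches and 2 gap columns over 250 bases of either gene. The other Klra genes lay 25.26 kb (Klra4) to 294.34 kb (Klra1) from the nearest thresholded peak, measured from their 5′ ends.

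Repeated sequence limits where short reads can be placed, and it was more common in the complex. In the complex 78.1% of 50-base words were found once in the genome, against 89.8% in a sample of chromosome 6, and for 100-base words the shares were 90.9% and 94.6%. Among the Klra genes the share of unique 50-base words ran from 52.4% to 95.5%, with a median of 75.7%, and among the Klrc genes from 46.7% to 72.0%. The members with a thresholded peak had a median of 92.5% and those without one 85.2%. Of those without one, 9 had at least 90%, Klri1 and Klri2, Klra5, Klra6 and Klra1 among them. Klra11-ps itself stood at 71.3%. Of the 54 peaks of the complex, 29 lay in intervals in which all 50-base words were unique, and the lowest share was 63.8%. How reads of several placements were handled is not given in the sources used here, and the part of sequence repeats in the low peak count was not tested.

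**Figure D4:**
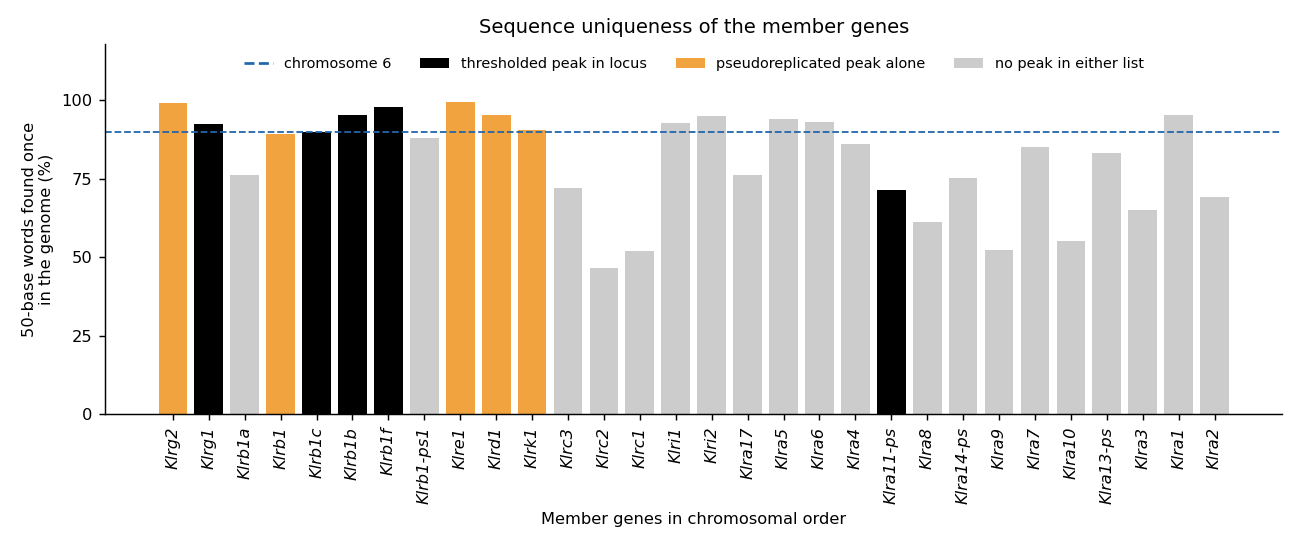
Share of 50-base words found once in the genome (y axis, %) for each member in chromosomal order, with black bars for members with a thresholded peak in the locus, orange for a pseudoreplicated peak alone and grey for no peak in either list. The dashed line is the chromosome 6 sample, 89.8%, and grey bars stand both above and below it.

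Peaks of the complex were lower in signal than the list as a whole. Their median signal was 9.61, against 13.2 over all 34610 thresholded peaks, with quartiles of 7.55 and 13.9 in the complex and 8.98 and 18.2 over the list. Only 16 of 54 reached the median signal of the list and 20 its median −log10 p. The median −log10 p was 98.9 in the complex and 115 over the list, and the median width 563 bp against 668 bp. Median GC content of the 200-base summit windows was 46.2%, against 52.0%. These values cover unlike mixes, because promoter peaks made up 16.7% of the complex and 39.6% of the list. Outside promoters the median signal of the complex was 9.69, and that of the list is not given here. What the mix contributes was not tested.

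**Figure D5:**
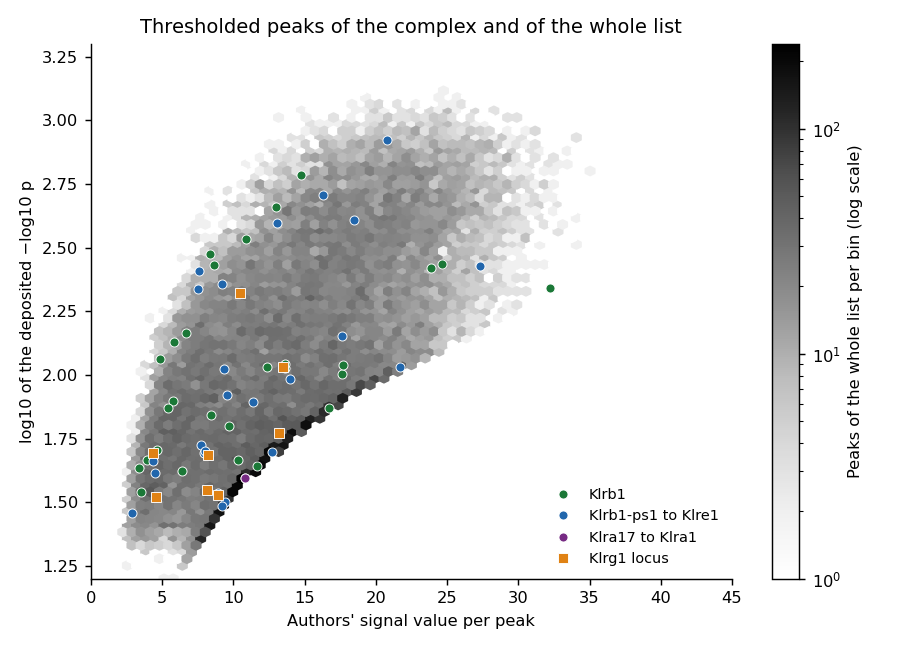
Deposited −log10 p on a log10 scale (y axis) against signal (x axis) for the thresholded peaks of the complex by stretch and of the Klrg1 locus (coloured points), over all thresholded peaks as grey bins. Most coloured points lie left of the middle of the grey cloud, and 57 peaks of the list fall outside the axes.

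Motif matches in the summit windows differed from those of the list in both directions. The RUNX pattern was found in 9 of 54 windows (16.7%), against 9.07% of all, and the CTCF pattern in 7 (13.0%), against 6.65%. The ETS pattern was found in 4 (7.41%), against 17.4%, and the KLF/SP pattern GGGCGGG in 6 (11.1%), against 17.7%. AP-1 (TGANTCA) and NF-kB (GGGNNTTCC) were found in 2 windows each (3.70%), against 9.62% and 6.10%, and NFAT (TGGAAAA) in 2 (3.70%), against 3.37%. TCF/LEF (CTTTGAT) was found in 1 (1.85%), against 3.46%, and the T-box pattern AGGTGTGA in 0, against 0.867%. Promoter peaks made up 16.7% of the complex and 39.6% of the list, and copies of one sequence were counted as separate windows. The intron peaks of Clec2i and Clec2g each held a RUNX match. Sites shared between the surroundings of Klrb1c and Klrb1b held ETS or KLF/SP matches at both copies. What promoter share and copies contribute to these differences was not tested. Both strands were searched, and ETS, NFAT and NF-kB matches can share bases. In the 23 RefSeq promoter windows of members, AP-1 matched 4, RUNX 3 and ETS 3, against 7.10%, 4.79% and 9.37% of all promoter windows. KLF/SP matched 2, against 35.2%, and TCF/LEF 1, against 3.15%. NF-kB, NFAT, T-box and CTCF matched none, against 6.27%, 5.99%, 1.19% and 1.18%.

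Genes that act with these receptors differed by list in how many had a thresholded promoter peak. Of 14 lectin genes of the region that are no members, 3 had a thresholded promoter peak: Clec2d (16.3), Cd69 (13.1) and Clec2i (10.9), and Clec2e, Clec2f and Clec2g had none. Of 16 adaptor and signalling genes 11 had one, with the adaptor gene Grb2 (22.3) and the phosphatase genes Ptpn11 (18.8) and Ptpn6 (15.3) highest. The Grb2 and Ptpn6 peaks lay at internal start sites, 9033 and 5550 bp downstream of the 5′ ends. The adaptor genes Tyrobp and Fcer1g and the kinase gene Syk had none, while Hcst, whose product DAP10 carries the NKG2D signal, had one (5.36) and is named here after its value was seen. Of 14 ligand genes 7 had one, led by H2-K1 (18.0), Clec2d (16.3) and H2-T23 (15.8), and Raet1d, Raet1e and H60b, which encode NKG2D ligands, had none. Clec2d, Clec2g and Clec2i stand in both the lectin and the ligand list, so the counts of these lists share genes. Of 12 transcription factors known to act on these genes 10 had one, led by Runx3 (26.7), Prdm1 (22.98) and Tox (16.2). The Tox and Ets1 peaks lay at internal start sites, 302740 and 59738 bp downstream of the 5′ ends. Tbx21, which encodes T-bet, and Tcf7, which encodes TCF1, had none. Beside them stand 0 of 30 for the receptor genes and 52.6% of protein-coding genes, which all but 2 of the listed genes are (Clec2f and Clec7a): the ligands are near that share and the lectin genes of the region below it. In the pseudoreplicated list 3 of 14 lectin genes, 12 of 16 adaptor and signalling genes, 10 of 14 ligands and 12 of 12 transcription factors had a promoter peak, against 57.7% of protein-coding genes. That list held promoter peaks of Syk (3.96), Raet1d (6.26), Raet1e (4.93), H60b (12.2), Tbx21 (9.26) and Tcf7 (5.55).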

How the data were processed

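ATAC-seq was measured in 2 technical replicates of 1 biological replicate of mouse regulatory T cells, and no groups were compared. Per the labels and file headers, the authors deposited 3 peak lists on mm10 from an alignment shared by both libraries, each with a signal value per peak, the authors' enrichment. The deposited lists also hold a −log10 p per peak, and the ranked list the −log10 IDR with 2 inputs whose nature is not given in the sources used here. Aligner, caller, shift of read ends and depth are not given either. Lines sharing an interval were reduced to the summit of highest signal. Genes came from GENCODE M21, sequence from RefSeq GRCm38.p6, and promoter windows from RefSeq. Uniqueness was the share of 50- or 100-base words found once, and copies came from blastn 2.17.0. Windows at summits were 200 bases. Python 3.11.15, numpy 2.4.6 and pandas 2.3.3 were used, and counting steps were checked on simulated data. Members, lists and patterns were chosen with earlier results of these data known. Named genes and peaks followed a rule: every member, the 10 peaks of highest signal, and the first 3 list genes with and without a promoter peak. Sequence pairs of copies were picked with their values in view, and promoter peak windows overlapping exons were not shown. No test was run because there is 1 pooled sample.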

Additional observations from a re-analysis of the deposited data

How the results depend on the processing

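Of 35 alternative settings, 4 of them chosen after seeing the data, 25 left their result within 1.5 times its value and 10 did not. Some of the 25 could not have moved their result and say nothing of its stability. A promoter count of 0 stays 0 under any narrower setting. Ending the complex at Klra1 removes no peak, so its peak count and median signal are fixed. Members with a peak in the locus numbered 5, against 10 with the pseudoreplicated list, 10 with the ranked list and 12 with 50 kb on either side. Members with a promoter peak numbered 0, against 4 with the pseudoreplicated and 4 with the ranked list and 1 with 2500 bp on either side. The complex held 54 peaks, against 90 in the pseudoreplicated list, 91 in the ranked list and 89 with every line counted. The density ratio of 1.54 turned to 0.914 when peaks below the median signal were left out, and ranged to 2.27 when the complex ended at Klra1. Over the genome the pseudoreplicated and ranked lists hold 58871 and 59390 peaks, against 34610 in the thresholded list. The complex and its part up to Klra1 hold the same 54 peaks, over 2680 and 1820 kb. Of these, 16 reached the list's median signal. What else moved the values was not tested. No replicate could be left out and no paired analysis was possible because peaks were called on pooled reads of 1 biological replicate. Depth limits cannot be given without counts.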
